A study of Mus musculus with 16 samples.

Results

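Fibroblast growth factor (FGF) genes were followed in mouse 8-cell embryos after double-stranded RNA (dsRNA) against the transcription factor genes Tfap2c and Tead4. The genes were 9 rows of the expression table, taken by symbol: the ligands Fgf3 and Fgf4, the receptors Fgfr1 and Fgfr2, the feedback inhibitors Spry2, Spry4 and Dusp6, and the transcription factors Etv4 and Etv5. They were 9 of 43437 genes in the table and, with Etv4 under the filter on low values, 8 of the 11422 genes tested. FGF ligands bind receptor tyrosine kinases at the cell surface, which activate RAS, RAF, MEK and ERK. Sprouty proteins and the phosphatase DUSP6 damp that signal and are themselves switched on by it, as are the ETS factors ETV4 and ETV5. In the mouse blastocyst, FGF4 from the epiblast acts through FGFR1 and FGFR2 on primitive endoderm and trophectoderm.

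Zygotes of all groups were injected. Controls received dsRNA to GFP, a jellyfish sequence absent from the mouse, and the other groups dsRNA to Tfap2c, to Tead4 or to the pair, before growth in KSOM medium to the 8-cell stage. Each group had 4 libraries, each from 10 pooled embryos or about 80 cells, 2 from cross A and 2 from cross B, here called A1, A2, B1 and B2. Cross A embryos had C57BL/6J×CBA/J mothers, cross B embryos had C57BL/6J×DBA/2J mothers, and the labels give fathers as C57BL/6J×DBA/2J in double knockdown A1 and B1. For the other libraries the number after the letters DBA changes from label to label, so the fathers' strain there is uncertain. Values are FPKM, fragments counted for a gene scaled to its transcript length and to the size of the library, so levels of different genes can be set side by side per length. Since read totals were not used here, the absolute depth behind a value is unknown. Nothing in the labels says whether the 4 pools of a group were cultured apart, so a p value here speaks only of the spread between pools.

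Tfap2c mRNA was 35.7 ± 6.60 FPKM in the control (SD, n = 4 libraries, as for every mean below), 44.3% of that level after Tfap2c dsRNA and 45.3% after both. Tead4 mRNA was 48.6 ± 7.00 FPKM in the control, 15.7% of that after Tead4 dsRNA and 19.5% after both, but also 58.2% after Tfap2c dsRNA alone. The crosses were unlike in this, as means of 2 libraries show. After Tfap2c dsRNA, Tfap2c mRNA went from 41.0 to 14.6 FPKM in cross A and from 30.4 to 17.0 FPKM in cross B. Tead4 mRNA then went from 52.5 to 22.5 FPKM in cross A and from 44.8 to 34.1 FPKM in cross B. All 10 listed 8-cell embryo markers were measured, while summed cumulus cell markers reached at most 0.184 FPKM and sperm markers at most 1.63 FPKM in any library.

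The stretches upstream of 4 of the genes are printed because Fgfr2, Spry2 and Etv5 fell and Fgf3 rose after Tfap2c dsRNA, and because these 4 stretches include every motif match found. RefSeq (GRCm38.p6, the assembly known as mm10) gave promoters for 6 of the 9 genes, 7 promoters in all, and the 250 bases before the start of transcription were searched. Capitals mark matches to GCCNNNGGC, a core of AP-2 sites (TFAP2C is an AP-2 factor), or to CATTCC, a core of TEAD sites. Both strands were searched and no matches overlapped.
Fgfr2, chr7:130266809-130267058, minus strand: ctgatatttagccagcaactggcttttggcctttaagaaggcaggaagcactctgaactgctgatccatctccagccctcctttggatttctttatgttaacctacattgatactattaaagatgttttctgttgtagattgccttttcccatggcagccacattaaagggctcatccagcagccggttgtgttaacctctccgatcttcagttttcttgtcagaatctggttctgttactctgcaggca
Spry2, chr14:105896820-105897069, minus strand: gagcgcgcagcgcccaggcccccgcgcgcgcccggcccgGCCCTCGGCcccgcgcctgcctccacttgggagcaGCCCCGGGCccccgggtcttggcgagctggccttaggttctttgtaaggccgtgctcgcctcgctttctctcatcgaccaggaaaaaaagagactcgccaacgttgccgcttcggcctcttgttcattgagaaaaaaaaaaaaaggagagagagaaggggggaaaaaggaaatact
Etv5, chr16:22439571-22439820, minus strand: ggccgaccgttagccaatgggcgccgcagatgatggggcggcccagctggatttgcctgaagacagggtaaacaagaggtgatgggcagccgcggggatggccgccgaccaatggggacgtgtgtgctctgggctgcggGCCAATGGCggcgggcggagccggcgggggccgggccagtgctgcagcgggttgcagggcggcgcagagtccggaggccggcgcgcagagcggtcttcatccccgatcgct
Fgf3, chr7:144838362-144838611, plus strand: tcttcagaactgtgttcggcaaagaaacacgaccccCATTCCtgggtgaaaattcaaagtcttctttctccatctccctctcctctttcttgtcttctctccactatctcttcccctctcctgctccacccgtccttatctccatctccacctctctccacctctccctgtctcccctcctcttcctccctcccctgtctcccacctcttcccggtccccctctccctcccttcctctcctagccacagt
Spry2 held 2 AP-2 core matches, at -211 to -203 and -176 to -168 from the start, and 1 of the 2 Etv5 promoters held 1 at -111 to -103. Fgf3 held 1 TEAD core match at -214 to -209. The Fgfr2, Fgf4 and Dusp6 windows held neither. Of 32851 mouse promoters of the same length, 13.7% held the AP-2 core and 12.6% the TEAD core. G and C made up 44% of the Fgfr2 window, 62.4% of the Spry2 window and 71.2% of the Fgf4 window, against a median of 52.4% over all promoters. A match is a string of letters in this window and not evidence of binding.

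In control embryos Spry2 was the most abundant of the 9 genes, at 91.3 ± 11.6 FPKM, followed by Fgfr2 at 28.9 ± 4.94 FPKM, and neither overlapped any other gene of the set. Next came Dusp6 (6.08 ± 5.87 FPKM), Fgf3 (4.09 ± 2.20), Etv5 (3.66 ± 1.52), Fgfr1 (3.50 ± 0.693) and Fgf4 (2.86 ± 0.537). Over both crosses together their ranges overlapped, so that no order among these means is larger than their spread. Within the crosses, both Dusp6 libraries lay below those of the others in cross A and above them in cross B. Both Fgfr1 libraries lay above those of the others in cross A. Spry4 stood at 0.962 ± 0.124 FPKM and Etv4 at 0.0857 ± 0.0804 FPKM. The plot of FPKM by library shows all 9.

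**Figure D1:**
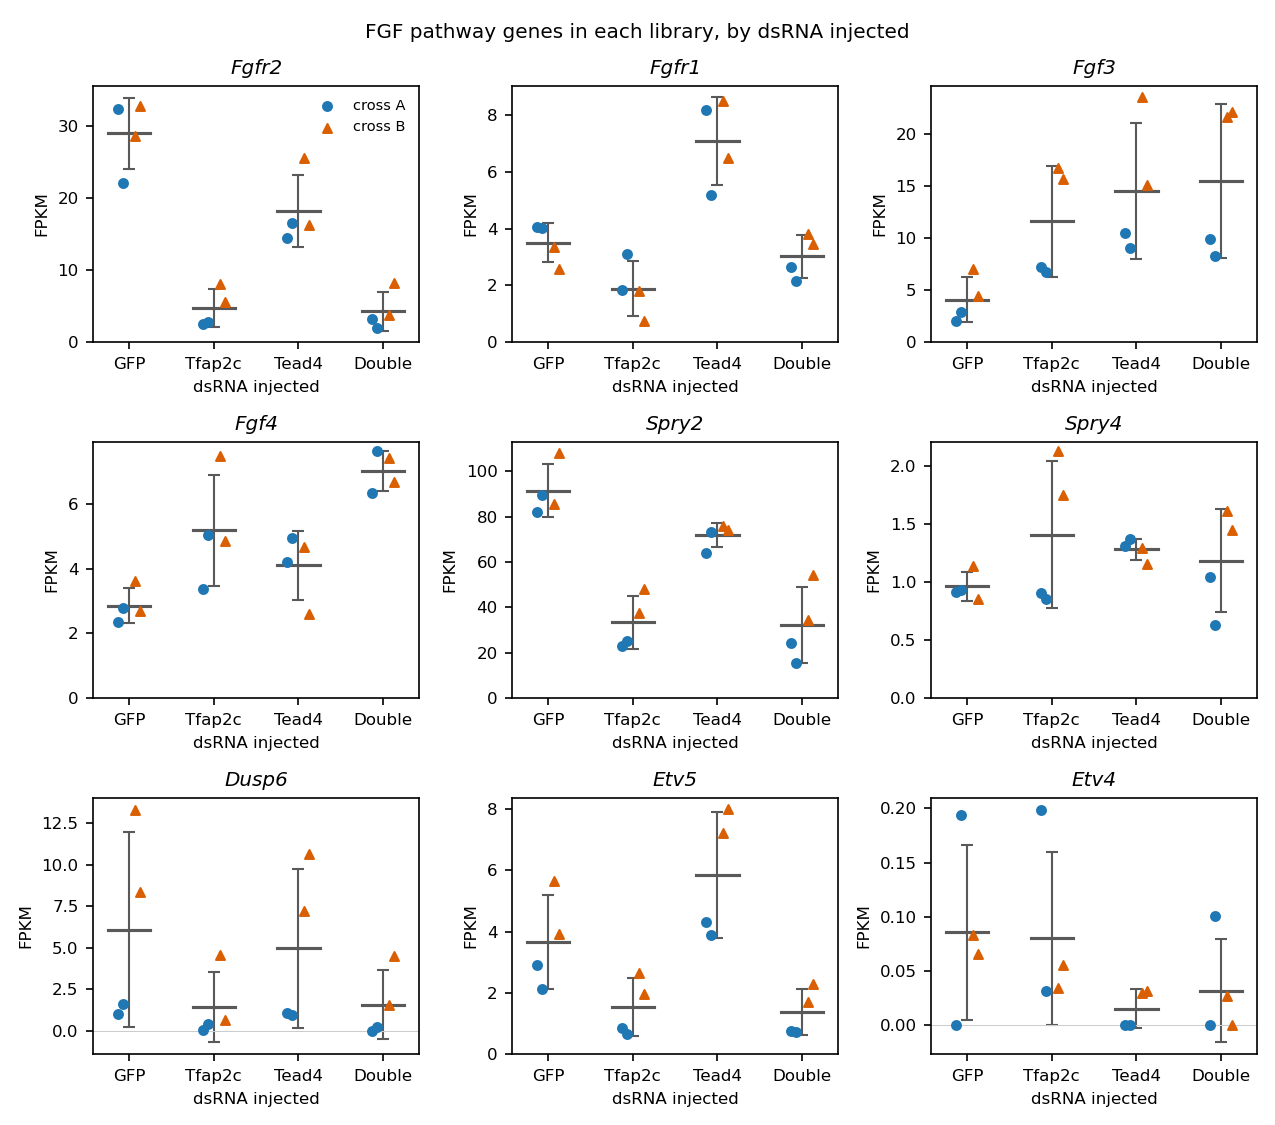
FPKM of the 9 genes (vertical axes, linear, each on its own scale) by dsRNA injected. Points are single libraries, circles for cross A and triangles for cross B, and grey bars give the mean and SD of 4 libraries. Fgfr2 and Spry2 sit low in the Tfap2c and double knockdown, Fgf3 is high in every knockdown, and cross B lies above cross A for Dusp6.

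After Tfap2c dsRNA, both ligands rose while both receptors, 2 feedback inhibitors and Etv5 fell. Fgfr2 mRNA went to 16.2% of its control mean, Dusp6 mRNA to 23.5% and Spry2 mRNA to 36.6%, and Fgf3 mRNA went to 2.84 times its control mean. Of the 8 genes tested, 2 were higher and 5 lower at an adjusted p under 0.05, against 29.6% of all 11422 genes called in either direction (16.3% higher and 13.2% lower). The median log2 change of the 8 genes was -0.80, against 0.06 over all genes. Changes are differences of log2(FPKM + 1), which understate the change of low genes, and every adjusted p is from limma with Benjamini-Hochberg adjustment over all genes tested. The summed 8-cell markers ran from 6151 to 7386 FPKM in this group against 8557 to 9450 FPKM in the control. Between 89.6% and 92.1% of these 2 groups' sums was Dppa3, a maternal factor gene, and the 7 markers other than Dppa3 and the targets Tfap2c and Tead4 summed to 542 to 600.2 FPKM against 652 to 696 FPKM. Summed 2-cell transcripts ran from 119 to 190.5 FPKM against 202 to 261 FPKM, without overlap. Summed blood markers, all from Hba-a1 and Hba-a2 with Hbb-bs, Hbb-bt and Ptprc at 0 in all 16 libraries, ran from 29.1 to 63.0 FPKM against 9.86 to 26.8 FPKM. The part of these in the results was not tested, and in pooled embryos fewer cells of a type and less RNA per cell cannot be told apart.

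Fgf3 (chromosome 7, 144838612 to 144843348, ENSMUSG00000031074) encodes a secreted FGF that signals mainly through FGFR1 and FGFR2. Its mRNA was 2.00, 2.89, 7.02 and 4.46 FPKM in control A1, A2, B1 and B2, and 7.24, 6.72, 16.8 and 15.7 FPKM after Tfap2c dsRNA. Within each cross both knockdown libraries exceeded both controls, but control B1 lay above knockdown A2, so the groups overlapped over the crosses together. The log2 change was 1.30 (SE 0.153, adjusted p = 2.5e-05).

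Fgf4 (chromosome 7, 144861386 to 144865245, ENSMUSG00000050917), the ligand of inner cell mass and epiblast, lies 18037 bases from Fgf3. Its mRNA was 2.36, 2.77, 3.62 and 2.69 FPKM in control embryos and 3.36, 5.04, 7.49 and 4.86 FPKM after Tfap2c dsRNA. Only knockdown A1 lay within the control range. The log2 change was 0.65 (SE 0.196, adjusted p = 0.0215). The call was lost without control A1 (adjusted p = 0.0595), control B2 (0.0578) or knockdown B1 (0.0753).

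Fgfr2 (chromosome 7, 130162451 to 130266808, ENSMUSG00000030849) encodes a receptor that transmits FGF signals in trophectoderm. Control libraries held 32.3, 22.1, 28.6 and 32.8 FPKM and Tfap2c knockdown libraries 2.45, 2.78, 8.02 and 5.51 FPKM. All 4 knockdown libraries lay far below all 4 controls. Fgfr2 fell by 2.49 on the log2 scale (SE 0.246, adjusted p = 6.19e-06), and within crosses A and B, 2 libraries against 2, the differences were -2.94 and -2.04.

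Fgfr1 (chromosome 8, 25518759 to 25575718, ENSMUSG00000031565), the receptor used by epiblast and primitive endoderm, was 4.04, 4.02, 3.35 and 2.58 FPKM in the control. After Tfap2c dsRNA it was 1.85, 3.12, 1.79 and 0.755 FPKM. Knockdown A2 lay above control B2, while within each cross the groups did not overlap. Fgfr1 fell by 0.70 on the log2 scale (SE 0.233, adjusted p = 0.0360). That call was lost without any 1 of control A1, A2 or B1 or knockdown A1, B1 or B2, with adjusted p from 0.0592 to 0.128, and also with no filter (0.0845), a pseudocount of 5 (0.0553) or no term for cross (0.0503).

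Spry2 (chromosome 14, 105891947 to 105896819, ENSMUSG00000022114) encodes a Sprouty inhibitor that blocks the route from receptors to ERK. Its mRNA was 82.1, 89.3, 85.6 and 108 FPKM in the control and 22.9, 24.9, 37.5 and 48.1 FPKM after Tfap2c dsRNA. The groups did not overlap, and knockdown libraries of cross A lay below those of cross B. Spry2 fell by 1.48 on the log2 scale (SE 0.216, adjusted p = 0.000159). Of the 8 genes, Fgfr2 and Spry2 were the 2 whose FPKM did not overlap between Tfap2c knockdown and control, against 22.1% of all genes tested.

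Spry4 (chromosome 18, 38586247 to 38601347, ENSMUSG00000024427), a second Sprouty gene, was 0.917, 0.935, 1.14 and 0.856 FPKM in the control and 0.901, 0.851, 2.13 and 1.75 FPKM after Tfap2c dsRNA. The 2 cross B knockdown libraries were the high ones. The log2 change of 0.26 (95% interval -0.07 to 0.59, adjusted p = 0.236) did not pass.

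Dusp6 (chromosome 10, 99263231 to 99267489, ENSMUSG00000019960) encodes a phosphatase that acts on ERK. It was 1.01, 1.61, 13.3 and 8.39 FPKM in control A1, A2, B1 and B2 and 0.0502, 0.421, 4.58 and 0.663 FPKM after Tfap2c dsRNA. Within each cross the knockdown libraries lay below the controls, but knockdown B1 exceeded both cross A controls. Dusp6 fell by 1.42 on the log2 scale (SE 0.35, adjusted p = 0.00719), and without the term for cross the call was lost (adjusted p = 0.223).

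Etv5 (chromosome 16, 22381313 to 22439570, ENSMUSG00000013089), an ETS factor induced by ERK, was 2.92, 2.13, 5.66 and 3.93 FPKM in the control and 0.860, 0.648, 2.65 and 1.96 FPKM after Tfap2c dsRNA. Knockdown B1 lay within the control range. Etv5 fell by 0.90 on the log2 scale (SE 0.135, adjusted p = 0.000195). With no term for cross the adjusted p was 0.0585.

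Its relative Etv4 (chromosome 11, 101769747 to 101785310, ENSMUSG00000017724) did not exceed 0.199 FPKM in any of the 16 libraries and was listed at 0 in 5 of them. Exact two-sided permutation tests of its mean FPKM, 4 libraries against 4, gave p from 0.143 to 0.943 over 5 comparisons, and adjusted p from 0.714 to 0.943, where the smallest possible p is 0.0286. No difference was detectable at this level.

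**Figure D2:**
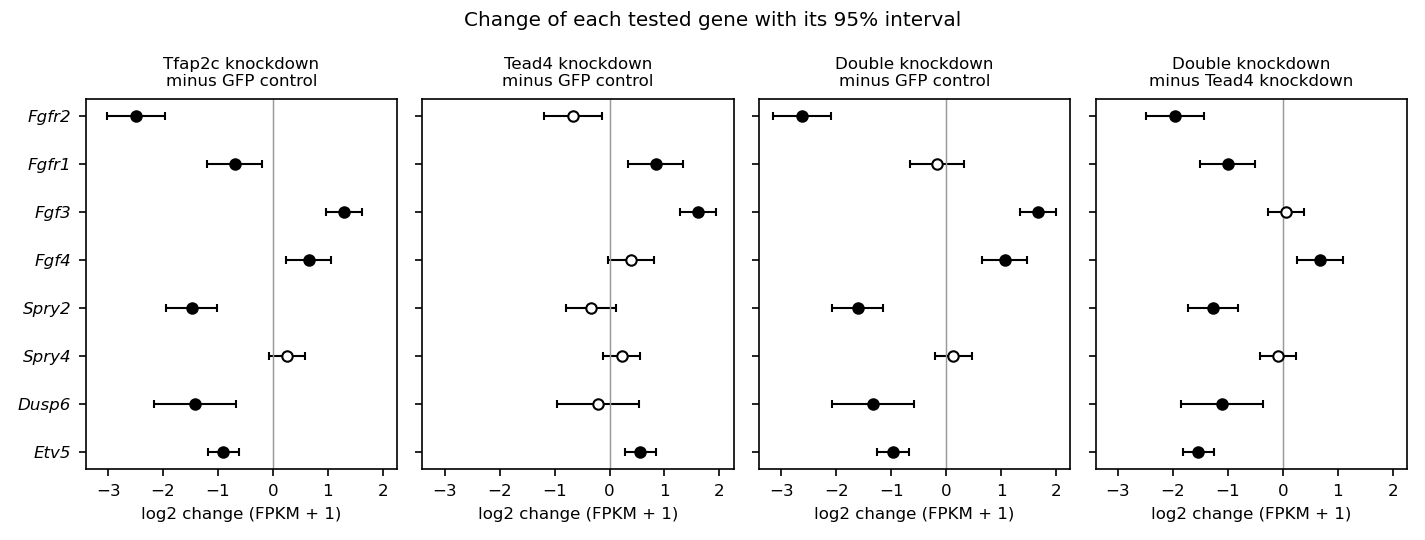
Change of the 8 tested genes in 4 comparisons, as difference of log2(FPKM + 1) (horizontal axis) with its 95% interval from limma. Filled circles passed an adjusted p under 0.05 and open circles did not. Fgfr2, Spry2, Dusp6 and Etv5 lie left of 0 in the Tfap2c and double knockdown, while Fgf3 lies right of 0 in each comparison with the control.

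After Tead4 dsRNA the ligand gene Fgf3, the receptor gene Fgfr1 and Etv5 rose. These were 3 of 8 tested genes, all higher, against 6.13% of all genes called in either direction and 3.35% called higher. At an unadjusted limma p under 0.05 there were 4 of 8, the fourth being a lower Fgfr2, against 2415 of all 11422 genes. The median log2 change was 0.30, against 0.05 over all genes. Summed 8-cell markers ran from 8193 to 9076 FPKM, summed blood markers from 20.3 to 50.8 FPKM and summed 2-cell transcripts from 144 to 194 FPKM, the last of them below every control, and their part was not tested. The 3 comparisons with the control share the same 4 control libraries, so their values are given side by side and not as independent results.

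Fgf3 was 10.4, 9.02, 23.5 and 15.1 FPKM in Tead4 knockdown A1, A2, B1 and B2, all above the highest control. The mean was 3.55 times that of the control and the log2 change 1.62 (SE 0.153, adjusted p = 2.58e-05). Fgf4 was 4.20, 4.95, 4.68 and 2.59 FPKM, with B2 inside the control range, and its log2 change of 0.39 (95% interval -0.03 to 0.80, adjusted p = 0.281) did not pass.

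Fgfr1 was 8.17, 5.18, 8.51 and 6.49 FPKM in the Tead4 knockdown, above every control library, at a mean of 7.09 ± 1.55 FPKM or 2.03 times the control. Its log2 change was 0.84 (SE 0.233, adjusted p = 0.0463), just inside the threshold. The call was lost without any 1 of 11 libraries (adjusted p 0.0517 to 0.136), namely all 4 controls, Tead4 knockdown A1, B1 and B2, Tfap2c knockdown A1 and B1, and double knockdown A1 and B2. It was also lost after median-ratio rescaling (0.0684), after quantile normalization (0.0632), with a pseudocount of 0.1 (0.0891), with no filter (0.112), with no term for cross (0.0821) and with the replicate label as a block (0.0548).

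Fgfr2 was 14.4, 16.5, 25.6 and 16.2 FPKM in the Tead4 knockdown. Libraries A1, A2 and B2 lay below every control and B1 within the control range. The mean was 62.7% of the control, and the log2 change of -0.66 (95% interval -1.19 to -0.14, adjusted p = 0.128) did not pass. It passed with a pseudocount of 5 (log2 change -0.562, adjusted p = 0.0485).

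Among the feedback genes, Spry2 was 64.1, 73.3, 75.9 and 73.9 FPKM, each below the lowest control of 82.1 FPKM. Its log2 change of -0.34 (95% interval -0.80 to 0.12, adjusted p = 0.420) did not pass. Spry4 was 1.31, 1.37, 1.29 and 1.16 FPKM, each above the highest control of 1.14 FPKM, with a log2 change of 0.22 (95% interval -0.11 to 0.55, adjusted p = 0.479). FPKM of 4 genes, Fgfr1, Fgf3, Spry2 and Spry4, did not overlap between Tead4 knockdown and control, as was the case for 9.67% of all genes tested.

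Dusp6 was 1.11, 0.940, 7.25 and 10.6 FPKM after Tead4 dsRNA, inside the control range except for A2, with a log2 change of -0.21 (95% interval -0.96 to 0.54, adjusted p = 0.807). Etv5 was 4.31, 3.88, 7.23 and 7.99 FPKM. Each library exceeded both controls of its own cross, but the cross A libraries did not all exceed the cross B controls. The log2 change of Etv5 was 0.56 (SE 0.135, adjusted p = 0.0228), lost without control A2 (0.0674) or B2 (0.0852), without Tead4 knockdown A1 (0.0594) or B2 (0.0589), with a pseudocount of 0.1 (0.064), with only the Tead4 knockdown and control libraries in the fit (0.05) and with no term for cross (0.451).

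With both dsRNAs, the ligand genes Fgf3 and Fgf4 rose, and Fgfr2, Spry2, Dusp6 and Etv5 fell, 6 of 8 genes against 25.1% of all genes called in either direction (13.9% higher and 11.3% lower). The median log2 change was -0.57, against 0.05 over all genes. FPKM of 4 genes, Fgfr2, Fgf3, Fgf4 and Spry2, did not overlap with the control, against 20.6% of all genes. Summed 8-cell markers ran from 6460 to 7706 FPKM, blood markers from 40.7 to 77.7 FPKM and 2-cell transcripts from 127 to 460 FPKM. Summed oocyte transcripts ran from 62.3 to 74.6 FPKM, above the 33.8 to 62.0 FPKM of the control, and the part of these was not tested.

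Fgf3 was 9.92, 8.31, 21.6 and 22.1 FPKM in double knockdown A1, A2, B1 and B2, or 3.79 times the control mean, with every library above every control. Its log2 change was 1.68 (SE 0.153, adjusted p = 5.4e-06). Fgf4 was 6.33, 7.65, 7.42 and 6.69 FPKM, a mean of 7.02 ± 0.615 FPKM, with a log2 change of 1.06 (SE 0.196, adjusted p = 0.00114). Both ligands were thus above the control in all 4 libraries.

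Fgfr2 was 3.14, 1.91, 3.80 and 8.14 FPKM in the double knockdown, 14.7% of the control mean, and fell by 2.63 on the log2 scale (SE 0.246, adjusted p = 6.49e-06). Fgfr1 was 2.65, 2.17, 3.83 and 3.45 FPKM. Both cross A libraries lay below the cross A controls and both cross B libraries above the cross B controls. The log2 change of Fgfr1 over both crosses was -0.17 (95% interval -0.67 to 0.33, adjusted p = 0.649).

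Spry2 was 24.4, 15.3, 34.5 and 54.4 FPKM in the double knockdown and fell by 1.61 on the log2 scale (SE 0.216, adjusted p = 9.75e-05). All 4 libraries lay below all controls. Dusp6 was listed at 0 in A1 and was 0.266, 1.57 and 4.50 FPKM in A2, B1 and B2. It fell by 1.33 (SE 0.35, adjusted p = 0.0121), lost with no term for cross (0.28).

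Etv5 was 0.768, 0.730, 1.71 and 2.28 FPKM and fell by 0.97 (SE 0.135, adjusted p = 0.000124). Only B2 lay inside the control range. Spry4 was 1.05, 0.627, 1.61 and 1.45 FPKM, on both sides of the control, with a log2 change of 0.13 (95% interval -0.20 to 0.47, adjusted p = 0.583).

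Set directly against Tfap2c knockdown, the double knockdown gave no call among the 8 genes, where 0.14% of all genes were called (0.035% higher and 0.105% lower), and FPKM of all 8 overlapped between the groups, as they did for all but 3.39% of genes. Log2 differences ran from -0.13 for Fgfr2 to 0.53 for Fgfr1. Fgfr1 (95% interval 0.03 to 1.03, adjusted p = 0.497) and Fgf3 (0.37, 95% interval 0.05 to 0.70, adjusted p = 0.441) were the 2 genes at an unadjusted limma p under 0.05. Of all 11422 genes, 1087 were under that level. The interval for Fgfr2 was -0.66 to 0.39 and that for Spry2 -0.59 to 0.33. Even the difference of 0.53 for Fgfr1 went uncalled, so the lack of calls does not show that the groups were equal.

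Against Tead4 knockdown, the double knockdown was lower for Fgfr2, Fgfr1, Spry2, Dusp6 and Etv5 and higher for Fgf4, 6 of 8 genes against 23.7% of all genes called (12.9% lower and 10.9% higher). Etv5 fell by 1.54 (SE 0.135, adjusted p = 2.83e-06), Fgfr2 by 1.96 (SE 0.246, adjusted p = 5.21e-05) and Spry2 by 1.27 (SE 0.216, adjusted p = 0.000639). For these 3 genes and for Fgfr1 and Fgf4 no double knockdown library overlapped the Tead4 knockdown range, against 18.7% of all genes.

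Fgfr1 fell by 1.01 between Tead4 and double knockdown (adjusted p = 0.00578), from 7.09 ± 1.55 to 3.02 ± 0.752 FPKM. Fgf4 was higher by 0.68 (adjusted p = 0.0203), lost without Tead4 knockdown B2 (0.0727) or double knockdown A2 (0.0595). Dusp6 was lower, with a log2 difference of -1.12 (adjusted p = 0.0314). That call was lost without Tead4 knockdown B1 (0.058) or B2 (0.0989), without double knockdown A1 (0.07) or B1 (0.105), with a pseudocount of 5 (0.0729), with no filter (0.087) and with no term for cross (0.384). Not called were Fgf3, with a log2 difference of 0.06 (95% interval -0.27 to 0.39, adjusted p = 0.823), and Spry4 (-0.09, 95% interval -0.42 to 0.25, adjusted p = 0.739).

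For Fgf3 the log2 change after both dsRNAs minus the sum of the 2 single changes was -1.24 (SE 0.217, adjusted p = 0.0262), the 1 call among 8 genes against 0.753% of all genes. Fgf3 thus rose by 1.30, 1.62 and 1.68 in the 3 knockdowns. The call was lost without any 1 of 8 libraries (adjusted p 0.0509 to 0.0666), namely control B2, Tfap2c knockdown A2, B1 and B2, Tead4 knockdown A1, A2 and B1, and double knockdown A1. It was also lost with no filter (0.0634) and with no term for cross (0.642). For Etv5 the same quantity was -0.63 (95% interval -1.04 to -0.23, adjusted p = 0.156), and for Fgfr2 it was 0.53 (95% interval -0.21 to 1.27, adjusted p = 0.601).

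Fgf3 and Fgf4 lie side by side on chromosome 7, and their neighbours were looked up after the ligand values had been seen. These were the other protein-coding genes within 300 kb whose RefSeq symbol was in the expression table, and any without a match were left out. Ppfia1 was 17.8 ± 2.26 FPKM in the control and 19.1 ± 4.08, 16.7 ± 2.84 and 18.05 ± 4.57 FPKM after Tfap2c, Tead4 and both dsRNAs, and Fadd 3.09 ± 0.701, 3.19 ± 0.316, 2.87 ± 0.838 and 3.10 ± 0.388 FPKM. Neither was called in any of these comparisons, with log2 changes from -0.10 to 0.08. Ano1 and Fgf15 did not exceed 0.569 and 0.442 FPKM. Ccnd1, the cyclin D1 gene, went from 3.18 ± 1.52 to 1.56 ± 0.412 FPKM after Tead4 dsRNA and fell by 0.65 (adjusted p = 0.0450), where Fgf3 rose. That call lies just inside the threshold and was not tried under the alternative settings.

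**Figure D3:**
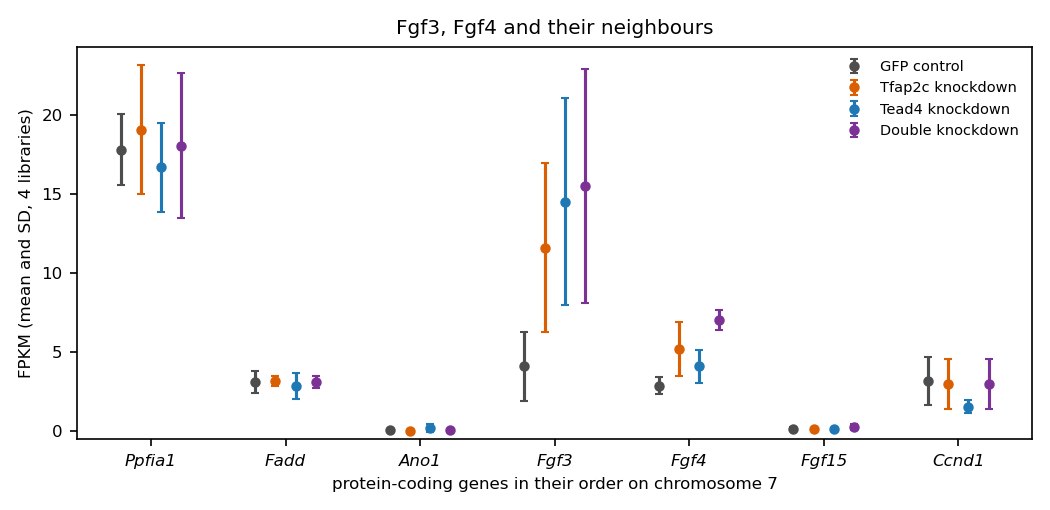
FPKM (vertical axis, mean and SD of 4 libraries) of Fgf3, Fgf4 and the protein-coding genes within 300 kb whose symbol was in the expression table. They stand in their order on chromosome 7 and not to distance, with 1 colour per group. Fgf3 is higher in each knockdown than in the control, while Ppfia1 and Fadd show no such shift.

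Levels also differed between the crosses, over all 4 groups. Dusp6 was higher in cross B by 1.92 on the log2 scale (SE 0.248, adjusted p = 6.23e-05), and its 2 control libraries averaged 10.8 FPKM in cross B against 1.31 FPKM in cross A, or 8.26-fold. Fgf3 was higher by 1.03 (SE 0.108, adjusted p = 1.24e-05) and Etv5 by 0.79 (SE 0.0954, adjusted p = 4.02e-05). In the control libraries these were 2.35-fold and 1.90-fold.

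Fgfr2 (0.65, adjusted p = 0.0103) and Spry2 (0.56, adjusted p = 0.0118) were also called higher in cross B over all groups, but in control embryos each differed only 1.13-fold. Fgfr2 averaged 2.61 FPKM in cross A and 6.77 FPKM in cross B after Tfap2c dsRNA, and 2.53 and 5.97 FPKM after both. After Tead4 dsRNA Fgfr2 averaged 15.4 and 20.9 FPKM. Spry2 averaged 23.9 and 42.8 FPKM after Tfap2c dsRNA, 19.8 and 44.4 FPKM after both and 68.7 and 74.9 FPKM after Tead4 dsRNA. Spry4 (0.27, adjusted p = 0.0707), Fgf4 (0.10, adjusted p = 0.626) and Fgfr1 (-0.09, adjusted p = 0.702) were not called. In all, 5 of 8 genes were called, all higher in cross B, where 33.5% of all genes were called, 17.2% higher and 16.3% lower. Over the 8 libraries of each cross, FPKM of all 8 genes overlapped between the crosses, as they did for all but 3.38% of genes. These ranges include the changes between the 4 groups. Within every group, both cross B libraries lay above both cross A libraries for Dusp6, Fgf3 and Etv5. For each of the other genes the crosses overlapped in some group.

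The crosses differed in other ways as well. Mitochondrially encoded genes took 10.3 ± 1.18% of FPKM in cross A and 8.30 ± 1.06% in cross B (SD, n = 8 libraries each). Summed 2-cell stage transcripts averaged 159 FPKM in cross A and 238 FPKM in cross B, and the part of these in the cross differences was not tested. Mothers, and any batch that goes with the cross, cannot be told apart. After Tfap2c dsRNA, mean Tfap2c mRNA fell less in cross B than in cross A, and the part of this was not tested.

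Whether a knockdown changed a gene differently in the crosses was tested as an interaction in limma. None of the 8 genes passed for any knockdown, and none of the 11422 genes did. At an unadjusted p under 0.05 stood Spry4 for Tfap2c dsRNA, no gene of the 8 for Tead4 dsRNA and Spry2 for both dsRNAs, and 1888, 797 and 1284 of all genes for Tfap2c, Tead4 and both dsRNAs. Each of these counts over all genes was above the 1 in 20 that chance would give. With 2 libraries per group and cross, the lack of calls does not show that the changes were equal. Within crosses A and B, Spry2 differed from the control by -2.09 and -1.13 after both dsRNAs and by -1.80 and -1.16 after Tfap2c dsRNA alone. The target Tfap2c itself had an interaction of 0.62 on the log2 scale for Tfap2c dsRNA (adjusted p = 0.114). For both dsRNAs its interaction was 0.41 (adjusted p = 0.368), and the part of these in the other genes was not tested.

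Across the 16 libraries, Fgfr2 and Spry2 moved most alike, with a Pearson r of 0.96 between their log2(FPKM + 1). Etv5 had an r of 0.83 with Fgfr2, 0.82 with Spry2 and 0.81 with Dusp6. Fgf4 ran against Fgfr2 (r = -0.66) and Spry2 (r = -0.65), and Fgf3 went with Fgf4 (r = 0.64) and with Spry4 (r = 0.67). Libraries of a group or of a cross share their differences, which enter each r, so these are descriptions.

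The tested genes most like each member over the same 16 libraries were found in the same way. Fgfr2 was closest to Plekhf1 (r = 0.98), Prelid2 (0.98) and Ly6a (0.97), and Spry2 to Ly6a (0.97), Prelid2 (0.97) and Gsto1 (0.96). Ly6a, a cell surface antigen gene, was 231 ± 87.3 FPKM in the control, 12.4 ± 12.6 after Tfap2c dsRNA, 136 ± 63.2 after Tead4 dsRNA and 13.6 ± 15.05 after both.

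Etv5 was closest to Spint1 (r = 0.98), a serine protease inhibitor, and Dusp6 to Stfa2l1 (0.96). Among the genes closest to Fgf3 were Cdkn1a (0.93) and Aurkb (0.93). Cdkn1a, a cell cycle inhibitor and p53 target, was 122 ± 62.5 FPKM in the control and 376 ± 168, 287 ± 145 and 367 ± 182 FPKM after Tfap2c, Tead4 and both dsRNAs. Fgfr1 was closest to Mrfap1 (0.89), Fgf4 to Smchd1 (0.90) and Spry4 to Eid2 (0.90).

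The rest of the FGF pathway was read from 7 further lists of 104 genes, of which 55 passed the filter. After Tfap2c dsRNA 11 of these were higher and 7 lower (32.7%), after Tead4 dsRNA 4, all higher (7.27%), and after both 12 higher and 7 lower (34.5%). These shares were near those of all genes, 29.6%, 6.13% and 25.1%, and their median log2 changes were 0.09, 0.10 and 0.10. The plot of calls by list shows how they fell. Calls on genes of these lists and of the other receptor tyrosine kinases were not tried under the alternative settings.

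**Figure D4:**
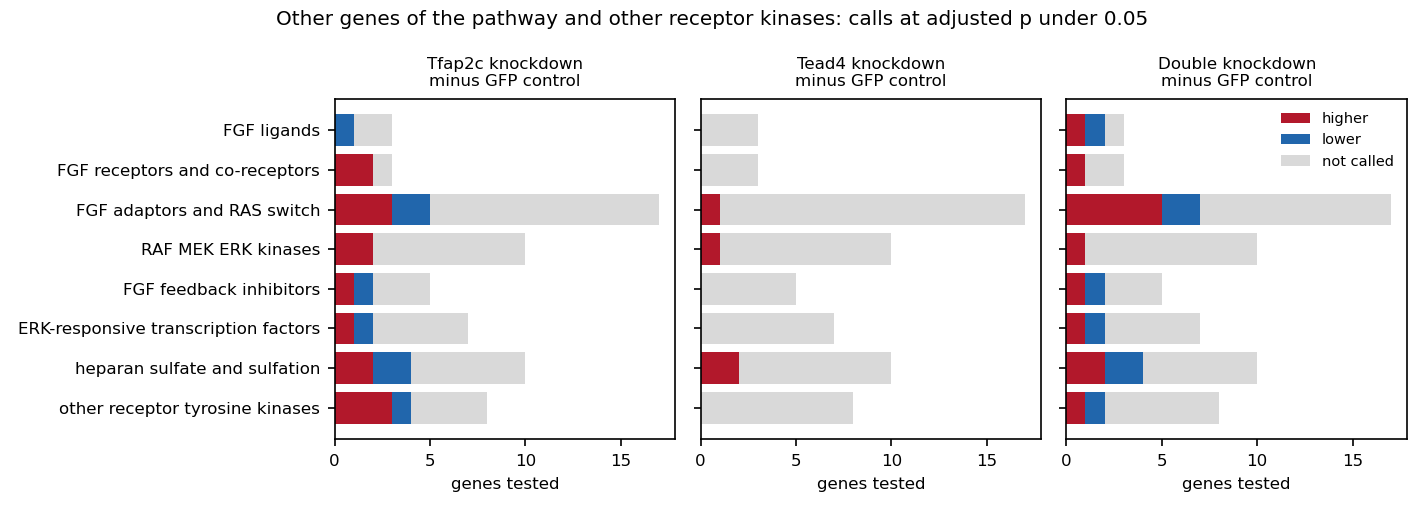
Number of tested genes (horizontal axis) in 7 lists of other FGF pathway genes and a list of other receptor tyrosine kinases, in each knockdown against the control. Red marks genes called higher, blue genes called lower and grey those not called. Calls go in both directions in most lists after Tfap2c dsRNA and after both, and after Tead4 dsRNA 4 pathway genes were called, all higher.

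Of 20 other ligand genes, 3 passed the filter and the other 17 did not exceed 1.90 FPKM in any library. Fgf13, whose product stays inside the cell and does not act as a ligand of FGF receptors, went from 1.03 ± 0.565 FPKM to 0.0910 ± 0.110 after Tfap2c dsRNA and fell by 0.86 (adjusted p = 0.0019). After both it fell by 0.86 as well (adjusted p = 0.00227). Fgf5, a ligand of the later epiblast, was up by 0.85 on the log2 scale after both dsRNAs (adjusted p = 0.0143), from 0.543 ± 0.151 to 2.01 ± 1.35 FPKM.

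Of 6 other receptor and co-receptor genes, 3 were tested. After Tfap2c dsRNA Fgfr3 was up by 0.70 on the log2 scale (adjusted p = 0.0062), from 1.41 ± 0.278 to 2.95 ± 0.687 FPKM, and Fgfr4 by 0.51 (adjusted p = 0.0261), from 1.13 ± 0.122 to 2.03 ± 0.316 FPKM. Klb, the co-receptor for endocrine FGFs, rose after both dsRNAs, from 2.31 ± 0.227 to 4.33 ± 0.724 FPKM (0.68, adjusted p = 0.0116). So Fgfr3 and Fgfr4 were called higher after Tfap2c dsRNA where Fgfr1 and Fgfr2 were called lower, though the Fgfr1 call was lost in 11 of 27 alternatives.

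Of 12 other feedback inhibitors, 5 were tested, and 1 rose and 1 fell in both the Tfap2c and the double knockdown. Il17rd (Sef), a membrane inhibitor of FGF signalling, was 0.471 ± 0.0946 FPKM in the control and 1.87 ± 0.361 and 2.01 ± 0.212 FPKM in these 2 groups, higher by 0.96 (adjusted p = 7.25e-05) and by 1.03 on the log2 scale (adjusted p = 4.91e-05). Spred1, a Sprouty-related inhibitor of RAS and RAF, went from 3.04 ± 1.33 to 1.04 ± 0.583 and 0.907 ± 0.253 FPKM, log2 changes of -0.97 (adjusted p = 0.0032) after Tfap2c dsRNA and -1.04 after both (adjusted p = 0.00233).

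Of 18 other ERK-responsive genes, 7 were tested. Ier3, an immediate early gene, stood at 0.218 ± 0.130 FPKM in the control, 6.28 ± 2.62 after Tfap2c dsRNA and 1.24 ± 0.542 after both, rises of 2.50 (adjusted p = 9.17e-06) and 0.85 (adjusted p = 0.0254) on the log2 scale. Between these groups it fell by 1.65 (adjusted p = 0.0257). Myc, also a target of many other pathways, fell by 1.06 after Tfap2c dsRNA (adjusted p = 0.011) and by 1.10 after both (adjusted p = 0.0101), from 49.3 ± 7.06 to 27.3 ± 17.5 and 27.2 ± 17.9 FPKM.

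Inside the cell, 17 of 19 adaptor and RAS genes were tested. After Tfap2c dsRNA, Crkl (log2 change 0.80, adjusted p = 0.000778), Cbl (0.90, adjusted p = 0.00629) and Frs2 (0.48, adjusted p = 0.018), the docking protein of FGF receptors, rose. Plcg1, a phospholipase bound by these receptors, fell by 0.61 (adjusted p = 0.00426). Rasa1 was the other gene of the list that fell. After Tead4 dsRNA Ptpn11, the phosphatase SHP2 that passes the receptor signal on to RAS, rose from 4.89 ± 0.949 to 10.2 ± 2.00 FPKM (0.93, adjusted p = 0.000335) and was the 1 call of 17.

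Of 10 tested genes in the list from RAF to ERK and below, 2 were called after Tfap2c dsRNA, 1 after Tead4 dsRNA and 1 after both, all higher. Braf rose after Tfap2c dsRNA (0.58, adjusted p = 0.00475) and after both (0.70, adjusted p = 0.00161).

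Heparan sulfate chains hold FGF ligands at their receptors. Of 10 tested genes of this list, Ext1, which builds the chain, rose in each knockdown, from 4.04 ± 0.975 FPKM to 8.84 ± 1.78, 7.42 ± 3.58 and 11.1 ± 2.61 FPKM after Tfap2c, Tead4 and both dsRNAs (adjusted p = 0.000533, 0.0263 and 7.88e-05). Hs6st1 and Ndst1, which add sulfate, fell by 0.76 (adjusted p = 0.00213) and 0.58 (adjusted p = 0.00759) after Tfap2c dsRNA, and the core protein gene Gpc4 rose (0.78, adjusted p = 0.0236). Sdc1, a syndecan, rose after Tead4 dsRNA (0.98, adjusted p = 0.0265), from 3.52 ± 2.13 to 8.12 ± 4.65 FPKM.

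As a comparison, 8 of 32 other receptor tyrosine kinase genes were tested. After Tfap2c dsRNA Erbb3 (0.56, adjusted p = 0.00747), Ephb4 (0.47, adjusted p = 0.0146) and Ddr2 (0.82, adjusted p = 0.0318) rose and Mertk fell by 0.57 (adjusted p = 0.0111). After both dsRNAs Ephb4 rose (0.39, adjusted p = 0.0418) and Mertk fell by 0.46 (adjusted p = 0.0363). Mertk, the one that fell, went from 7.70 ± 0.864 to 5.00 ± 1.48 FPKM after Tfap2c dsRNA, next to 28.9 ± 4.94 to 4.69 ± 2.61 FPKM for Fgfr2.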

How the data were processed

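Polyadenylated RNA of pooled 8-cell embryos was amplified by Smart-seq2, per the labels' protocols, and the authors deposited FPKM, that is fragments per gene corrected for length and for library size. CASAVA, Trim Galore, STAR, Cufflinks and mm10 are named in the submitters' processing notes. Their versions, roles and annotation were not given in the sources used here. In all, the table had 43496 lines, and 59 repeated identifiers were summed. FPKM sums ran from 799260 to 874436, and relative depth, estimated from the steps of low values, from 0.873 to 1.12 of the mean. The number of genes at 1 FPKM or more lay between 10049 and 10504.

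A gene was tested if 4 or more of the 16 libraries reached 1 FPKM. R 4.3.3 and limma 3.58.1 (lmFit, then eBayes with a trend) modelled log2(FPKM + 1) on group and cross over all 16 libraries. Tests were two-sided, with Benjamini-Hochberg adjustment over the 11422 genes, a threshold of 0.05 and 95% intervals. An interaction fit tested differences between crosses, and Etv4, under the filter, was tested by exact permutation. The fit was tested on simulated data. Groups and crosses come from sample titles. Members, gene lists and tests were chosen with earlier results of these data known. The 9 members were always named, other lists gave up to 4 genes by lowest p after Tfap2c or both dsRNAs and up to 2 after Tead4 dsRNA, of which the text names most. For each tested member the 3 genes of highest Pearson r were looked up. Some of the genes these rules name are not reported here. Alternatives were pseudocounts of 0.1 and 5, no filter or 5 FPKM, 2 rescalings, no cross term, a replicate block, only the groups compared, single crosses and leaving out each library.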

Additional observations from a re-analysis of the deposited data

Results flagged for a closer look

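In 36 groups of 4 libraries checked, 2 held a library set apart from the other 3, where chance gives about 1 in 20. Dusp6 stood at 4.58 FPKM in Tfap2c knockdown B1, against 0.0502 to 0.663 FPKM in the other libraries of that group. Etv4 stood at 0.199 FPKM in Tfap2c knockdown A1, against 0.0321 to 0.0558 FPKM in the others, all under the filter.

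In 3 comparisons every library of one cross moved one way and every library of the other cross the opposite way. How often this happens among all tested genes was not counted, so the 3 cannot be set against chance. For Fgfr1 after both dsRNAs the log2 difference from the control was -0.566 for cross A embryos but 0.231 for cross B embryos, and the interaction test in limma did not pass (adjusted p = 0.468). For Spry4 after Tfap2c dsRNA the differences were -0.0379 and 0.557 (interaction adjusted p = 0.25). For Spry4 between double and Tead4 knockdown they were -0.359 and 0.186, and this difference between crosses was not tested.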

How the results depend on the processing

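Of 28 called changes of single genes, 15 stayed called under every alternative tried and 13 lost the call under at least 1, and none changed sign. The falls of Fgfr2 and Spry2 after Tfap2c dsRNA and after both, and the rise of Fgf3 in each knockdown, were among the 15. The 13 calls were lost as given beside each result and, for single crosses, here, and the cause was not tested. The number of the 8 genes called after Tfap2c dsRNA was 7, and 4 with no term for cross or in cross B alone. It was 5 to 7 in other settings or with 1 library left out. After Tead4 dsRNA it was 3, and 1 with a pseudocount of 0.1, no term for cross or either cross alone. It was 4 with a pseudocount of 5, 2 in other settings and 1 to 3 with 1 library left out. Between double and Tead4 knockdown it was 6, 2 in cross B alone, 4 to 6 in other settings or with 1 library left out. After both dsRNAs it was 6 with any library left out, otherwise 4 to 6. The 1 non-additive call became 0 with no filter, no term for cross or either cross alone, 0 to 1 with 1 library left out. Single crosses hold 8 libraries, and 7 calls were lost in A alone and 12 in B alone. Lost in both, with adjusted p in A and B, were Fgf4 (0.134, 0.0985) and Fgfr1 (0.187, 0.0658) after Tfap2c dsRNA, Etv5 (0.205, 0.28) and Fgfr1 (0.297, 0.12) after Tead4 dsRNA, Dusp6 (0.0616, 0.17) and Fgf4 (0.158, 0.0981) between double and Tead4 knockdown, and the non-additive Fgf3 (0.241, 0.323). Lost in B alone were Dusp6 after Tfap2c dsRNA (0.0588), Dusp6 (0.12) and Fgf4 (0.0719) after both, and Spry2 (0.0653) and Fgfr1 (0.0748) between double and Tead4 knockdown. Pseudocounts moved low genes: Dusp6 after Tfap2c dsRNA changed by -2.40 with 0.1 and -0.679 with 5.

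With the replicate block (label A1, A2, B1 or B2) in place of cross, 7, 2 and 6 genes were called after Tfap2c, Tead4 and both dsRNAs, 0 between double and Tfap2c knockdown, 6 between double and Tead4 knockdown and 1 as non-additive. The Fgfr1 rise after Tead4 dsRNA (adjusted p = 0.0548) was the 1 call it ended. Whether libraries with the same label shared more than their cross is not known. Between groups, 12 correlations of the difference between libraries 1 and 2 of a cross ran from -0.165 to 0.176. The 2 above 0.1 were control with Tfap2c knockdown, 0.131 in cross A and 0.176 in B. Such correlations cannot show that no day or batch was shared.

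Reported differences that changed sign were uncalled ones. In cross A alone these were Spry4 after Tfap2c dsRNA (-0.0379) and after both (-0.0778), Dusp6 (-0.118) and Fgfr1 (-0.0119) between double and Tfap2c knockdown, and Fgf3 between double and Tead4 knockdown (-0.0872). In cross B alone they were Fgfr1 after both (0.231), Spry2 between double and Tfap2c knockdown (0.0274) and Spry4 between double and Tead4 knockdown (0.186). With 1 library left out, double minus Tfap2c knockdown ran from -0.127 to 0.00494 for Etv5, -0.335 to 0.324 for Dusp6, -0.352 to 0.0874 for Spry2 and -0.353 to 0.0325 for Fgfr2. Double minus Tead4 knockdown ran from -0.165 to 0.00979 for Spry4 and -0.0783 to 0.144 for Fgf3, and the cross difference of Fgfr1 from -0.168 to 0.0167.

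Over all genes, 3377 were called after Tfap2c dsRNA, 700 after Tead4 dsRNA, 2872 after both and 2712 between double and Tead4 knockdown. With no term for cross these were 2165, 279, 1786 and 1644, in cross A alone 1776, 250, 1816 and 1404, and in cross B alone 2218, 81, 1227 and 1533. The 16 calls between double and Tfap2c knockdown became 4 with a pseudocount of 0.1 or no filter, 31 with 5, 3 with no term for cross, 8 with the replicate block, and 2 with only these groups or cross A alone. The 86 non-additive calls became 14, 7, 36, 2 and 3 with no filter, no term for cross, the replicate block, cross A alone and cross B alone. With 1 library left out the counts ran from 407 to 753 after Tead4 dsRNA, 1 to 22 between double and Tfap2c knockdown and 12 to 113 for non-additive calls. Interactions with cross, 0 genes called for each knockdown, reached at most 55, 32 and 26 genes with no filter and 48, 3 and 52 with 1 library left out for Tfap2c, Tead4 and both dsRNAs. The split of calls after Tead4 dsRNA was 383 higher and 317 lower. Median-ratio rescaling made it 262 and 414, and quantile normalization 288 and 396. After Tfap2c dsRNA it was 1866 and 1511, and 1537 and 1807 after median-ratio rescaling, where the median change of all genes moved by less than 0.1. Absolute depth is unknown, so low values such as those of Etv4 carry no counting interval.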
